A study of Homo sapiens with 29 samples.

Results

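Chromatin accessibility after the stereoisomer WX-02-43 was compared with the vehicle control in parental 22Rv1 cells, a human prostate cancer cell line, with the 3 WX-02-43 and 3 DMSO libraries chosen by their labels from the 29 libraries of the series. WX-02-43 was given at 20 µM and DMSO at 0.1%, each for 3 h. WX-02-23, given at the same dose and time in 3 further parental libraries, is the stereoisomer that engages a cysteine of FOXA1. Pladienolide B (PladB) at 10 nM and at 100 nM for 3 h gave 3 parental libraries each. It binds the splicing factor SF3B1. Parental cells carried no engineered allele, so endogenous FOXA1 was the only FOXA1 present. The labels do not say whether replicates came from separate cultures, so p-values measure the spread between these libraries, which may be technical. All results refer to 1 cell line. A look-up used 14 libraries of engineered 22Rv1 cells, which overexpress Y36C-PHF5A and carry a doxycycline-inducible WT-FOXA1 or C258A-FOXA1. They pool vehicle, WX-02-23 at 20 µM and PladB at 100 nM with doxycycline (Dox), and vehicle without Dox in the WT-FOXA1 line.

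In ATAC-seq a transposase inserts sequencing adapters into open chromatin, and piled-up fragments mark accessible sites such as promoters and enhancers. FOXA1 is a pioneer factor: its forkhead domain binds sites within closed chromatin, after which other factors, in prostate cells the androgen receptor among them, can bind nearby. Stereoisomers have the same atoms and bonds in another arrangement in space, and one is often run beside the other as a control compound.

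Each library was a separate list of peaks on build hg19, and the measure compared was whether a library held a peak in a region. All 15 parental lists came from 1 processing folder. Read totals are not used here. Relative depth was read from the background in reads per base, which the fold and p-value of each peak together determine. This background was 0.881, 1.002 and 0.921 in DMSO replicates 1 to 3, and 0.966, 1.119 and 1.502 in WX-02-43 replicates 1 to 3. WX-02-43 replicate 3 thus stood apart, with the highest background of the 15 parental libraries. The lowest summit called held 6 reads in each DMSO library and 6, 7 and 8 reads in WX-02-43 replicates 1 to 3, and sites below that were not detectable. Prostate markers were not checked, because no gene annotation of this build was used. In bulk cells, a site open in fewer cells and a site less open in each cell cannot be told apart.

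The number and the extent of accessible sites after WX-02-43 differed from DMSO by less than the spread between replicates. DMSO lists held 91632, 98193 and 93068 peaks, a mean of 94298 ± 3449 (SD, n = 3). WX-02-43 lists held 96471, 98079 and 83748 peaks, a mean of 92766 ± 7851 (SD, n = 3). The first 2 WX-02-43 lists lay within the range of the DMSO lists, and the third was shorter than every other. The mean difference was -1532 peaks (90% interval -14445 to 6447 peaks, two-sided exact permutation p = 0.8). That interval is the range of all 9 differences between a treated and a control library. Peaks covered 37.6, 39.5 and 37.7 Mb after DMSO and 39.0, 40.5 and 33.5 Mb after WX-02-43 (difference -0.581 Mb, 90% interval -6.04 to 2.93 Mb, two-sided exact permutation p = 0.9). The smallest p that 3 against 3 libraries allow is 0.1, and both p-values were 0.9 after Benjamini-Hochberg adjustment over these 2 measures. Without WX-02-43 replicate 3 both differences changed sign, to 2977 peaks and 1.51 Mb. Without DMSO replicate 2 they were 416 peaks and 0.0613 Mb.

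**Figure D1:**
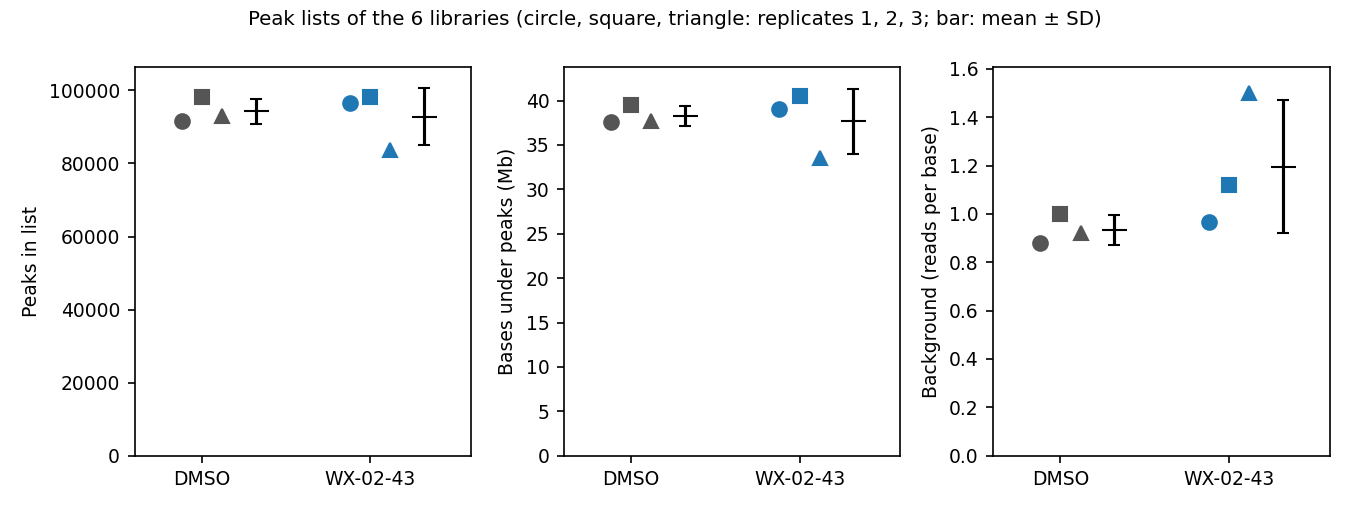
Peaks per list, megabases under peaks and background in reads per base for the 3 DMSO and 3 WX-02-43 libraries, each axis from 0; points are libraries and bars the mean ± SD. WX-02-43 replicate 3 (triangle) has the shortest list, with 83748 peaks, and the highest background, at 1.502 reads per base.

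The 6 lists merged into 120885 regions, and the groups occupied most of the same sites. All 6 libraries held 64496 regions, 53.4% of the total. They made up all but 7.07%, 2.29% and 0.631% of the 71659 regions that the DMSO libraries shared, shares that 2, 1 and none of the WX-02-43 libraries held. In the other direction, 91.7% of the regions held by all 3 WX-02-43 libraries were held by all 3 DMSO libraries and 0.580% by none. Regions with a peak in a single library were the largest class after these, 10155 for WX-02-43 and 10905 for DMSO. They were narrow, with a median width of 164 bp, against 545 bp for regions held by all 6.

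Gained regions are those with a peak in each of the 3 WX-02-43 libraries and in no DMSO library, and lost regions are the opposite. There were 408 gained regions, 0.338% of the regions, and 452 lost regions, 0.374%. Both directions were thus of nearly the same size. For a single region, Fisher's exact test of presence in 3 against 3 libraries cannot give a two-sided p below 0.1, so no region could pass on its own. The grid of regions by number of libraries shows these 2 corners as the least filled.

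**Figure D2:**
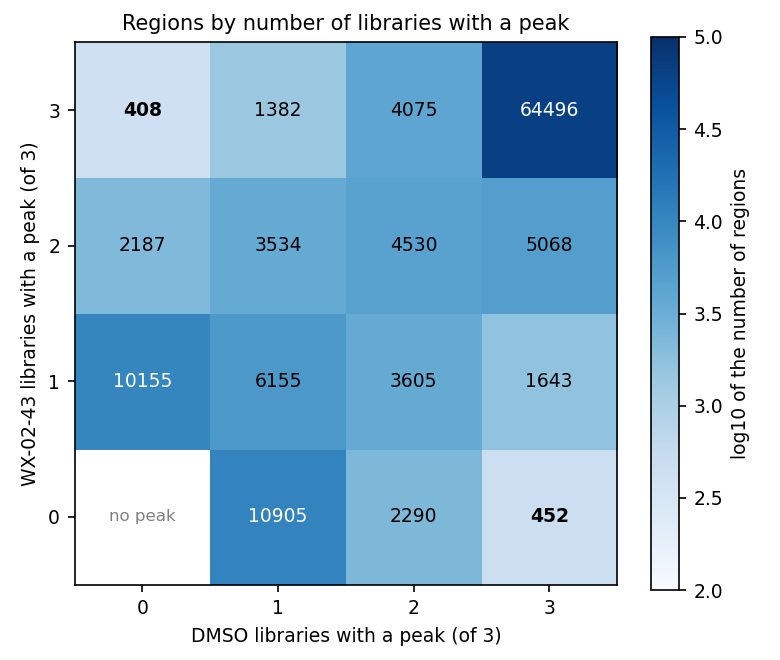
Number of regions by how many of the 3 DMSO libraries (horizontal) and the 3 WX-02-43 libraries (vertical) held a peak; the colour is the log10 of the number. The corner held by all 6 has 64496 regions, and the gained (408) and lost (452) corners have the fewest.

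The balance of gained and lost regions depended most on WX-02-43 replicate 3. Without it, 1715 regions were gained (1.43% of 119905) and 658 were lost (0.549%). Without WX-02-43 replicate 1 there were 930 gained regions (0.791%) and 1106 lost (0.941%), and without replicate 2 there were 787 gained (0.67%) and 1275 lost (1.09%). Dropping any library relaxes the rule and raised the counts. Gained regions then outnumbered lost ones clearly without WX-02-43 replicate 3 and slightly without DMSO replicate 2, and were fewer in the other 4 cases. Of the 1715 regions gained without it, replicate 3 itself held a peak in 24.3%. Replicate 1 held a peak in 44.4% of the regions gained without it and replicate 2 in 52.9%. These shares stand for 416, 413 and 416 regions with replicates 3, 1 and 2 left out. Each number is near the 408 gained with all 6 libraries, so the shares mostly restate the counts above. Leaving out DMSO replicate 1 gave 783 gained (0.659%) and 1411 lost regions (1.19%). Without DMSO replicate 2 there were 1031 (0.882%) and 993 (0.85%), and without DMSO replicate 3 there were 800 (0.676%) and 1298 (1.1%).

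The single-library classes showed the same library apart. WX-02-43 replicate 3 alone lacked 3442 regions that the other 5 libraries held, while the other libraries alone lacked 561 to 1800. It alone held 1359 regions, while the others alone held 2867 to 4861. The regions it lacked were weak elsewhere, with a median percentile of 24.6 to 28.6 by the authors' p-value in the other lists. This was common to all libraries: for regions that another library alone lacked, medians ran from 19.7 to 28.2. The part of WX-02-43 replicate 3 in the counts beyond the values with and without it was not tested.

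The gained and lost regions were weak and narrow sites. By the authors' p-value, gained regions had a median percentile of 16.6, 16.0 and 13.2 in the lists of WX-02-43 replicates 1 to 3, where 50 is the middle of a list. Lost regions had medians of 15.7, 16.0 and 16.9 across DMSO replicates 1 to 3. For regions shared by the 6 libraries the medians were 60.8 to 66.8. The summit of a gained region held a median of 11, 13 and 14 reads in WX-02-43 replicates 1 to 3, against 21, 24 and 26 reads over all peaks of those lists. The summit of a lost region held a median of 11 reads in each DMSO list, against 21 or 22 over all peaks. The mean percentile exceeded 30 for 33 gained regions (8.09%) and 45 lost regions (9.96%). The median width was 266.5 bp over all 408 gained and 257 bp over all 452 lost regions. It was 347 bp over all regions and 164 bp for regions held by a single library.

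The distance to constant peaks was near that of other weak regions. Within 1 kb of a region held by all 6 libraries lay 53 gained regions (13.0%), 77 lost regions (17.0%) and 17.0% of the regions held by a single library. The median distance to such a region was 9858 bp for gained and 13226 bp for lost regions. Within 10 kb of another of their kind lay 4 of 408 gained and 2 of 452 lost regions. No such share was taken for other regions, so bunching was not tested. Apart from chromosome Y, with 252 regions, the gained share ran from 0.138% on chromosome 19 to 0.510% on chromosome 10. The lost share ran from 0.181% on chromosome 22 to 0.568% on chromosome 14. These shares rest on 4 to 40 regions per chromosome and direction and were not tested.

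The strongest members of both sets can be placed on the genome. All coordinates are of build hg19, and gene, exon and promoter annotation at these positions was not used here. First among the gained regions was one on chromosome 5, from 71909439 to 71909706. Its percentile by the authors' p-value was 54.9, 48.2 and 34.3 in WX-02-43 replicates 1 to 3, and its summit held 20, 19 and 17 reads. No WX-02-23 library and 2 of 3 PladB 10 nM libraries held it. The next 2, on chromosome 2 from 88512114 to 88512331 and on chromosome 10 from 71488065 to 71488328, were both held by 3 of 3 WX-02-23 libraries. Of the 9 other parental libraries they were held by 6 and 7. The fourth lay on chromosome 5 from 111753819 to 111754044 and was held by 1 of the 9 others. The fifth, on chromosome 15 from 42815615 to 42815938, was held by all 3 WX-02-23 libraries and by no PladB library. Even the top gained regions thus ranked near the middle of their lists. Of these 5, 4 had a peak in at least 2 of the 9 other parental libraries. This is not particular to them: over all 120885 regions, only 9.98% had a peak in none of the 9 and 6.97% in 1.

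First among the lost regions was one on chromosome 1, from 244065519 to 244065857. Its percentile was 56.5, 62.6 and 53.2 in DMSO replicates 1 to 3, with 18, 21 and 17 reads at the summit, and 8 of the 9 other parental libraries held it. The second and the third, on chromosome 19 from 12848244 to 12848435 and on chromosome 1 from 152008349 to 152008520, lay 73 bp and 70 bp from a region held by all 6 libraries. They had high summits, 43 to 47 and 44 to 50 reads, but authors' folds of only 4.08 ± 0.27 and 4.01 ± 0.35 (SD, n = 3), since the local background there was high. The fourth, on chromosome 4 from 95397009 to 95397304, and the fifth, on chromosome 10 from 66305867 to 66306207, were held by all 9 other parental libraries. The chromosome 4 site was also held by 13 of the 14 libraries from engineered 22Rv1 cells. These 2 sites therefore lacked a peak in the 3 WX-02-43 libraries alone among the 15 parental ones.

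The other parental libraries were then looked up. Of the 408 gained regions, 45 (11.03%) had no peak in any of the 9 other libraries, which did not enter the choice, and 8 (1.96%) had one in all 9. Over all 120885 regions these shares were 9.98% and 47.4%, and over regions held by a single library of the 6 they were 43.4% and 0.114%. The share of gained regions without a peak elsewhere was thus near that of all regions. The 3 strongest of the 45 lay on chromosome X from 105576798 to 105577151, on chromosome 10 from 54092581 to 54092945 and on chromosome 1 from 16153390 to 16153637, ranked 33, 37 and 73 among gained regions. Of the 452 lost regions, 11 (2.43%) had a peak in all 9 others and 31 (6.86%) in none. Beyond the 2 already placed, the 3 strongest of the 11 lay on chromosome 12 from 6722197 to 6722437, on chromosome 6 from 77244869 to 77245118 and on chromosome 8 from 88646084 to 88646364. The lists of the engineered cells came from another processing folder, so cell line and batch cannot be told apart. These cells, over all their treatments, held a peak in at least 1 of 14 libraries at 63.5% of gained and 58.2% of lost regions. The same share was 75.5% over all 120885 regions, 31.4% for regions held by a single library of the 6 and 96.4% for those held by all 6.

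Lists of different groups were next compared with lists of one group. The Jaccard index of a pair of lists is the bases they share over the bases either covers. It was 0.716 ± 0.001 among the DMSO lists (SD, 3 pairs), 0.710 ± 0.013 among the WX-02-43 lists (SD, 3 pairs) and 0.711 ± 0.008 between the groups (SD, 9 pairs). Within-group pairs exceeded between-group pairs by 0.00167, with an exact one-sided permutation p of 0.2. The excess was 0.00306 with every list trimmed by p-value to the length of the shortest, and 0.00504 without WX-02-43 replicate 2, each with an exact p of 0.1, the smallest possible. Without WX-02-43 replicate 3, the 6 pairs between groups averaged 0.716, and the remaining WX-02-43 pair reached 0.725. Summit positions were compared next. At the 64496 regions held by all 6 libraries, the median distance between the summits of 2 libraries was 26 or 27 bp within each group and 25 to 28 bp between groups. The mean over pairs differed by 0.222 bp, with an exact one-sided permutation p of 0.4. Without WX-02-43 replicate 1 this difference was -0.25 bp, and without replicate 3 it was -0.0833 bp.

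**Figure D3:**
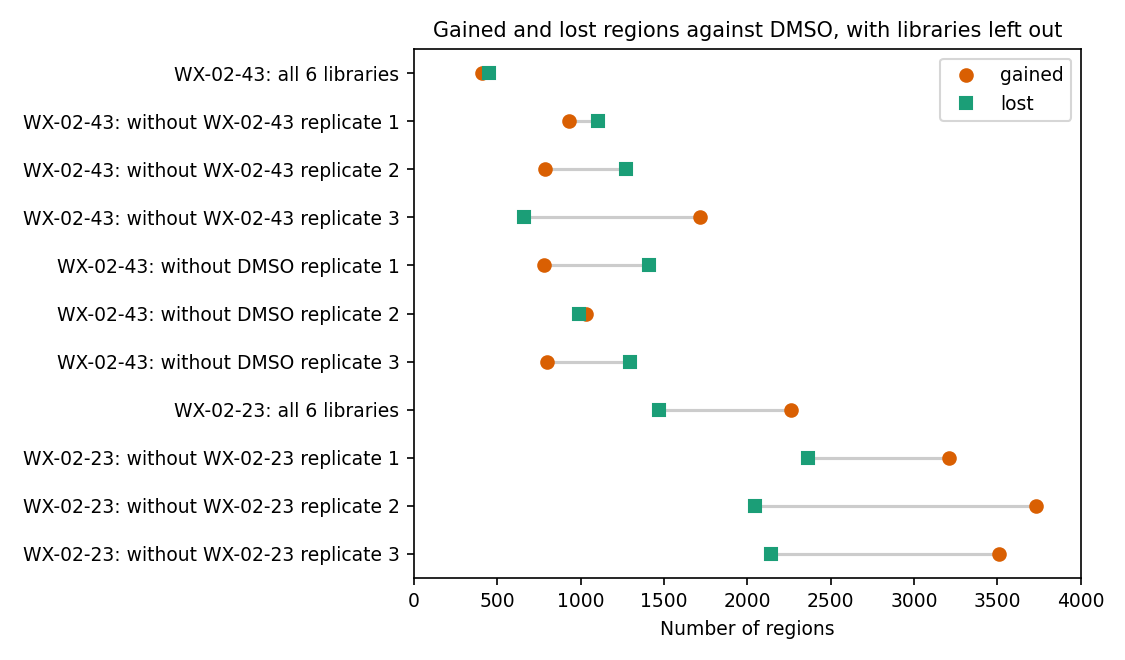
Number of gained (circles) and lost (squares) regions against DMSO, for WX-02-43 with all 6 libraries and with each library left out, and for WX-02-23 with all 6 and with each WX-02-23 library left out. With all 6 libraries, gained and lost counts are 408 and 452 for WX-02-43 and 2259 and 1472 for WX-02-23. With 1 library left out, WX-02-43 counts lie between 658 and 1715. With 1 WX-02-23 library left out, its counts lie between 2044 and 3730.

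The stereoisomers were compared at 1 dose and time against the same 3 DMSO libraries, as 1 pair of compounds. Tests covered 3 readouts of whole lists, of which 2 were added after seeing the data. A further test was made in each of 8 parts of the DMSO regions sorted by strength, which was not planned either. Since the stereoisomers share the DMSO controls, each compound's own values are given side by side. WX-02-23 gave 2259 gained regions, 1.81% of its 124871 regions, and 1472 lost regions, 1.18%. Reduced to 2 WX-02-23 libraries, it gave 3208 (2.63%), 3730 (3.05%) and 3512 (2.88%) gained regions without replicates 1, 2 and 3, and 2363 (1.94%), 2044 (1.67%) and 2139 (1.75%) lost regions. For PladB 10 nM, 501 regions (0.414%) were gained and 687 (0.567%) lost with its 3 libraries. The WX-02-43 counts without replicate 3, 1715 and 658, lay below the ranges of 2 WX-02-23 libraries in both directions. The difference in these counts was not tested, and the readouts below have 1 value per library.

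WX-02-43 lists resembled the DMSO lists more than WX-02-23 lists did. The mean Jaccard index with the 3 DMSO lists was 0.712, 0.720 and 0.703 for WX-02-43 replicates 1 to 3 and 0.691, 0.683 and 0.686 for WX-02-23 replicates 1 to 3, so the groups did not overlap. The difference was 0.0250 (90% interval 0.0121 to 0.0367); two-sided exact permutation p = 0.1, the smallest possible here, and 0.15 after adjustment over the 3 readouts. Without WX-02-43 replicate 3 it was 0.0294.

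The share of peaks that overlapped no DMSO peak was 6.80%, 7.04% and 3.28% in WX-02-43 replicates 1 to 3 and 9.60%, 8.76% and 9.07% in WX-02-23 replicates 1 to 3. The difference was -3.44 percentage points (90% interval -6.32 to -1.72, two-sided exact permutation p = 0.1, adjusted p = 0.15). The groups did not overlap, and WX-02-43 replicate 3, with the shortest list of the 6, had the lowest share. Without that library the difference was -2.23 points. With peaks of an authors' fold of at least 6 it was -3.68 points and the groups overlapped (exact p = 0.2).

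For the loss of DMSO sites, the stereoisomers overlapped in the full lists and not in lists of equal length. Regions made from the DMSO lists alone numbered 72530 with a peak in all 3 of them. Of these, WX-02-43 replicates 1 to 3 lacked 3.56%, 2.59% and 7.57%, and WX-02-23 replicates 1 to 3 lacked 5.03%, 6.79% and 6.03%. WX-02-43 replicate 3 lacked more than any WX-02-23 library, and the groups overlapped. The difference was -1.38 points (90% interval -4.21 to 2.54, two-sided exact permutation p = 0.5, adjusted p = 0.5), which does not show that the compounds act alike. With lists of equal length it was -2.38 points and the groups did not overlap (exact p = 0.1). With peaks of an authors' fold of at least 6 it was only -0.340 points and the groups overlapped. Without WX-02-43 replicates 1 and 2 in turn it was -0.875 and -0.391 points. Without WX-02-43 replicate 3 the groups no longer overlapped, and the difference was -2.88 points with an exact p of 0.1.

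The DMSO regions were then sorted by strength. The 72530 regions were split into 10 equal parts by their mean percentile in the DMSO lists, with part 10 the strongest. In the weakest part, WX-02-43 replicates 1 to 3 held a peak in 78.5%, 83.0% and 60.8% of 7253 regions, and WX-02-23 replicates 1 to 3 in 74.8%, 68.1% and 70.8%. WX-02-43 replicates 1 and 2 lay above every WX-02-23 library there, and replicate 3 below every one. In part 5 the shares were 99.9%, 99.9% and 99.2% with WX-02-43 and 98.5%, 98.0% and 98.2% with WX-02-23, and the compounds no longer overlapped. In parts 9 and 10 every library held every region. The compounds did not overlap in parts 5 to 8, each with a two-sided exact permutation p = 0.1, or 0.2 after adjustment over the 8 parts that varied.

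Parts 5 to 10 were pooled because of the pattern just described, so their values are a description with no test. They held 43518 regions. WX-02-43 replicates 1 to 3 lacked 7, 9 and 62 of them, and WX-02-23 replicates 1 to 3 lacked 147, 226 and 208. All 3 libraries lacked 1 region with WX-02-43 and 51 regions with WX-02-23. The same numbers were 1 with PladB 10 nM and 12 with PladB 100 nM. Single libraries, replicates 1 to 3, lacked 10, 26 and 33 regions with PladB 10 nM and 145, 102 and 188 with PladB 100 nM. The share with a peak was 99.94% ± 0.07 (SD, n = 3) with WX-02-43 and 99.56% ± 0.10 (SD, n = 3) with WX-02-23. The difference was 0.385 points. When peaks of the treated lists had to reach an authors' fold of 6, the difference changed sign to -0.0107 points. With lists of equal length it was 0.790 points. Without WX-02-43 replicate 3 it was 0.427 points.

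**Figure D4:**
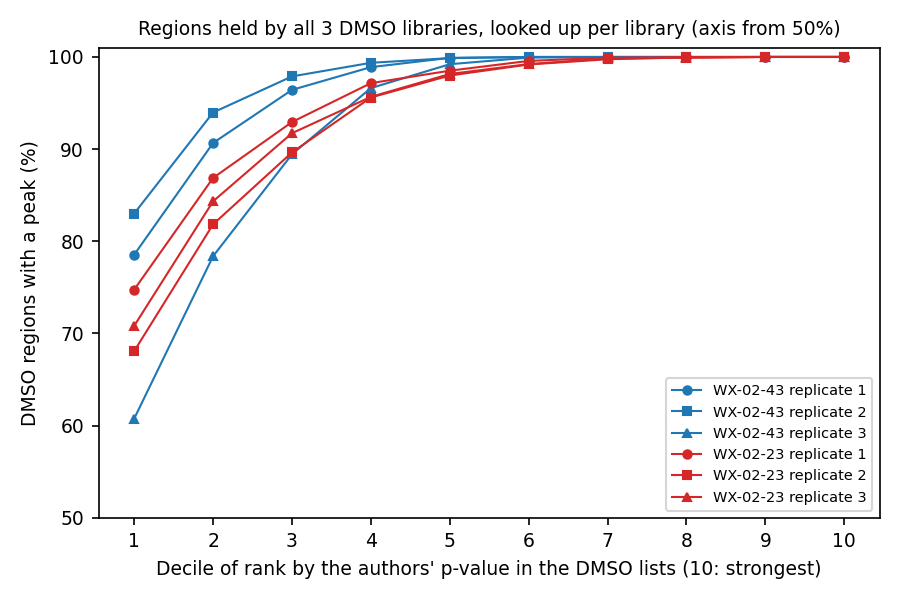
Share of regions held by all 3 DMSO libraries that had a peak in each WX-02-43 and WX-02-23 library, by decile of strength in the DMSO lists (7253 regions each, vertical axis from 50%). WX-02-43 replicate 3 is lowest in the weakest decile, at 60.8%, and lies above all WX-02-23 libraries in decile 5, at 99.2%.

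The regions that WX-02-23 changed were then looked up in the WX-02-43 libraries, which did not define them, beside PladB 10 nM. Of the 2259 regions gained with WX-02-23, WX-02-43 replicates 1 to 3 held 27.2%, 30.5% and 12.4%, and PladB 10 nM replicates 1 to 3 held 24.8%, 17.4% and 16.9%. The groups overlapped, with a difference of 3.64 points (90% interval -12.4 to 13.6, exact two-sided permutation p of 0.6). Of the 1472 regions lost with WX-02-23, WX-02-43 replicates 1 to 3 held 75.3%, 77.4% and 55.1%, and PladB 10 nM replicates 69.9%, 60.9% and 58.0%. The difference was 6.32 points (90% interval -14.8 to 19.4, exact two-sided permutation p of 0.5). In both sets WX-02-43 replicates 1 and 2 lay above every PladB 10 nM library and replicate 3 below every one. Without WX-02-43 replicate 3 the differences were 9.14 and 13.4 points, each with an exact p of 0.2. Without replicate 1 they were 1.73 and 3.28 points, and without replicate 2 they were 0.0664 and 2.26 points. With lists of equal length they were 3.59 points (exact p = 0.2) and 8.83 points (exact p = 0.1), and in the lost set every WX-02-43 library then lay above every PladB 10 nM library. The distance of all these shares from 0% and 100% is set in part by the choice of regions on the DMSO libraries. PladB 100 nM libraries held 13.5% to 16.6% of the gained and 39.3% to 48.8% of the lost set. As a baseline, WX-02-43 replicates 1 to 3 held 91102, 93507 and 78670 of the 120885 regions of the WX-02-43 and DMSO lists. Of the 72530 DMSO regions they lacked 3.56%, 2.59% and 7.57%, and PladB 10 nM replicates 1 to 3 lacked 3.30%, 5.34% and 6.44%.

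In the other direction, the 408 regions gained with WX-02-43 had a peak in 56.6%, 49.5% and 50.7% in WX-02-23 replicates 1 to 3 and in 49.8%, 30.9% and 32.8% in PladB 10 nM replicates 1 to 3. The difference was 14.5 points (90% interval -0.245 to 25.7, exact two-sided permutation p of 0.2). The 452 lost regions had a peak in 48.0%, 41.8% and 43.6% after WX-02-23 and in 55.1%, 43.8% and 40.9% after PladB 10 nM, a difference of -2.14 points (90% interval -13.3 to 7.08, exact two-sided permutation p of 0.8). All 4 of these comparisons had an adjusted p of 0.8. With lists of equal length the last 2 differences were 10.2 and -2.16 points, each with an exact p of 0.1 and no overlap of the groups. PladB 100 nM libraries, whose lists were shorter, held 26.2% to 29.9% of gained and 27.4% to 34.7% of lost regions. Without PladB 10 nM replicate 1 the difference at the lost regions changed sign to 2.10 points.

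**Figure D5:**
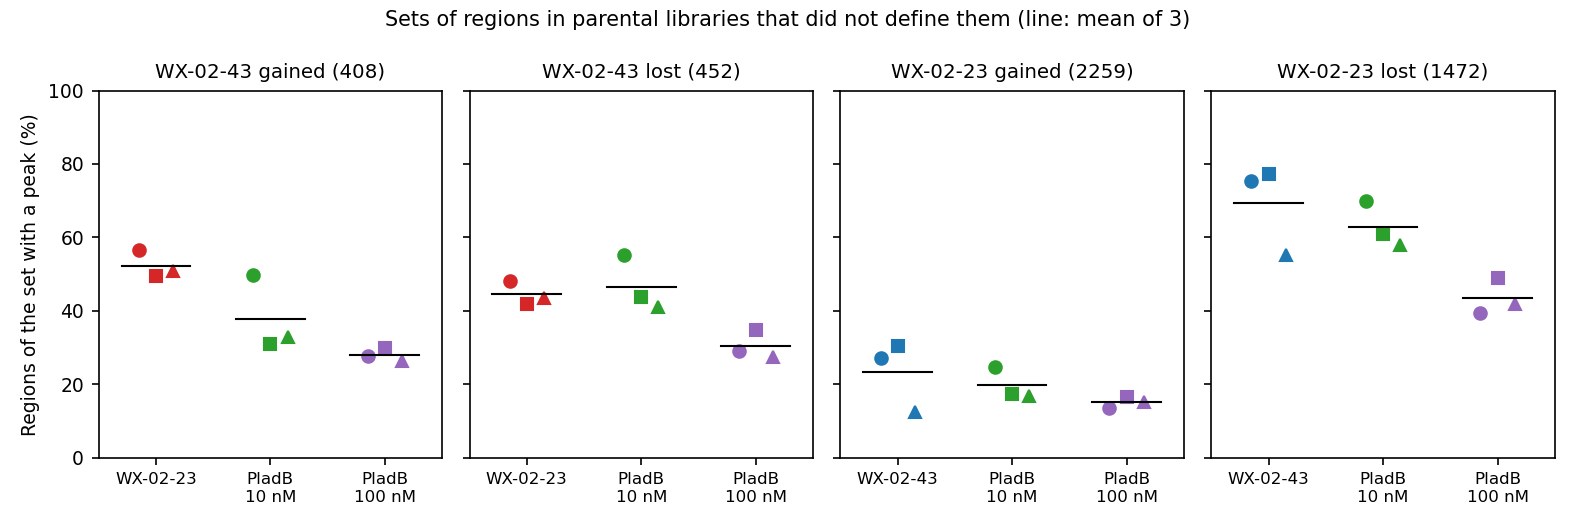
Percent of the regions gained or lost with WX-02-43 (408 and 452) and with WX-02-23 (2259 and 1472) that had a peak in parental libraries that did not define the set; circles, squares and triangles are replicates 1, 2 and 3 and lines the mean of 3. WX-02-43 replicate 3 is the lowest of the WX-02-43 libraries in both WX-02-23 sets, at 12.4% and 55.1%.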

How the data were processed

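The submitters' processing notes list Bowtie2, MACS2 and hg19, and libraries were made with a commercial ATAC-seq kit, per the labels' protocols. Neither versions or options nor duplicate removal and read shifting are given in the sources used. The authors deposited 1 peak list per library, with a score, a fold enrichment, p and q as −log10 of the p-value and q-value (at least 2 for q), and, for each peak, the distance in bp of the summit from the peak start. These deposited values were used only within a list.

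Summit reads and background were solved from fold and p as MACS2 defines them. All peaks matched within 0.001 in −log10 p. Peaks on chromosomes 1 to 22, X and Y (all parental peaks) were merged where they overlapped or touched, and a region was held by a library with a peak over at least 1 bp. A percentile is a peak's rank by p within its list. Libraries were compared by exact permutation tests with Benjamini-Hochberg adjustment over related tests. Counting was tested on simulated data, and merging and overlap were checked with bedtools 2.31.1. Other tools were scipy 1.17.1, pandas 2.3.3, numpy 2.4.6 and statsmodels 0.14.6 under Python 3.11.15.

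The members, lists and tests were chosen with earlier results of these data known. Regions named are the 5 highest-ranked gained and lost ones by mean percentile, plus 3 of each that no other (gained) or every other (lost) parental library held. Promoter shares and motifs were planned but not analysed here, since no hg19 genome or annotation was used.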

Additional observations from a re-analysis of the deposited data

How the results depend on the processing

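Of 159 alternative values over 14 results, 134 kept their direction or, as counts, lay no more than 1.5 times away. Of the 26 counts of regions, 14 moved further. With 1 library allowed to disagree, 3977 regions were gained and 4385 lost. With a fold of at least 6, 215 regions were gained. Neither count moved that far with stricter q-values (1e-05), equally long lists, summit windows (100 bp per side), regions drawn from 15 parental lists, or peaks that cover 50% of their region. Leaving out each library gave 783 to 1715 gained and 658 to 1411 lost regions. A rule over fewer libraries is met more often by construction.

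Of 133 signed differences, 11 reversed or fell to 0, and no p could pass 0.05. The difference in peak number ranged from -4188 to 2977 and that in covered bases from -1.99 to 1.51 Mb over the leave-one-out values, that in similarity from -0.000224 to 0.00504, and that in summit distance from -0.25 to 0.667 bp. With 1 peak per library in a region the summit difference was 0 bp. With a fold of at least 6, the difference in strong DMSO regions was -0.0107 points. The share of WX-02-43-lost regions, WX-02-23 minus PladB 10 nM, ranged from -4.98 to 2.10 points over the leave-one-out values and was 0.756 points with DMSO replicate 1 left out of the set. The cause of these reversals was not tested. Deviations of same-numbered WX-02-43 and DMSO libraries had correlations of 0.0076, -0.014 and -0.016 over the 56389 regions not held by all 6. Presence of weak peaks cannot show whether same-numbered libraries were handled together, and the labels do not say. With the replicate block the difference in peak number stayed -1532 (exact sign-flip p = 0.75), and over all blocked results p ran from 0.25, the smallest possible, to 1, so no call changed. The readouts on peaks outside DMSO peaks, on DMSO regions lacking and on parts 5 to 10 were added after seeing the data. The tests in single parts sorted by strength were not planned either. Lists of equal length brought 4 comparisons whose groups overlapped to the smallest possible p of 0.1, beside the similarity within groups.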
